A study of Mus musculus with 6 samples.

Results

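The genes described here carry fatty acids into hepatic cells, bind them in the cytosol, or are secreted from the liver into the lipid transport of the blood. They are the 5 rows of the deposited gene table whose symbol is Cd36, Slc27a1, Fabp1, Apoa4 or Angptl8, of 389 rows in all. The table held only genes that the authors had selected for a difference between the genotypes, and these are called the listed genes below. A gene without a row was not selected, which does not mean that it was unchanged. RNA was sequenced from the livers of mice with a whole-body knockout of Usp28, a deubiquitinase gene (KO, 3 samples), and of wild-type mice (WT, 3 samples). Both groups had been fed a methionine-choline deficient diet, a model of steatohepatitis, for 4 weeks, begun at the age of 8 weeks. Because the deletion was in the whole body, it was not limited to any liver cell type. The sources used here do not state how the allele was made, the sex of the mice or their feeding before collection, and no samples from another diet were analysed. The labels do not say that the samples of a group came from separate animals, so p-values reflect only how much these samples differed, which may be in part technical.

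As background, long-chain fatty acids reach the liver bound to albumin or in lipoproteins, and membrane proteins such as CD36 and the SLC27 family promote their entry. Inside the hepatocyte they are bound by FABP1 and are then oxidised, stored as triglyceride or sent out in very-low-density lipoproteins, whose secretion needs the phosphatidylcholine that this diet depletes. Several of the uptake and binding genes are known targets of the nuclear receptors PPARα and PPARγ, and the title of the study names PPARγ. In KO liver Cd36, Slc27a1, Fabp1 and Apoa4 were lower and Angptl8 was higher than in WT liver. Mean levels were between 2.17-fold and 3.94-fold higher in WT for the 4 lower genes, and 2.50-fold higher in KO for Angptl8, all on the FPKM scale (fragments per transcript length and library depth).

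Depth was worked out from the ratio of count to FPKM, and was between 20860000 and 22130000 reads in KO libraries and between 20350000 and 24150000 reads in WT libraries. The listed genes took between 3.73% and 3.77% of the reads in KO. In WT they took 8.75% and 8.82% in replicates 1 and 2 and 5.45% in replicate 3, which stood apart from the other WT libraries. Results are therefore also given without WT replicate 3, when 95.6% of listed genes passed the test used below. This library was singled out by its share of reads in genes selected on the same comparison, in which it lay nearest to KO. Lower p-values without it can follow from that choice and are not further evidence of a difference. Usp28 and Pparg had no row among the listed genes, nor had any of 21 hepatocyte markers, so neither the genotype labels nor the labelled tissue were checked against them.

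Cd36 (ENSMUSG00000002944) lies on chromosome 5, 17781690 to 17888801, on the minus strand of GRCm38. It encodes a scavenger receptor that promotes the uptake of long-chain fatty acids and is made by macrophages, endothelium and adipocytes as well as hepatocytes. It stood at 37.0, 24.0 and 24.5 FPKM in KO replicates 1, 2 and 3, against 81.8, 41.9 and 74.9 FPKM in WT replicates 1, 2 and 3. The groups did not overlap on this scale, but KO replicate 1 and WT replicate 2 lay close together. On the CPM scale, a count relative to the recovered depth, which takes no account of transcript length, they changed places. KO replicate 1 then held 101.5 CPM and WT replicate 2 held 95.8 CPM. The log2 fold change from counts was -1.13 ± 0.38 (SE, edgeR quasi-likelihood test, adjusted p = 0.0174 over the listed genes).

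Slc27a1 (ENSMUSG00000031808; chromosome 8, 71568882 to 71587302, plus strand) encodes FATP1, a membrane protein that couples fatty acid uptake to activation with coenzyme A and is best known from muscle and fat. It was the least abundant of the 5 genes, with 1.76, 1.73 and 2.20 FPKM in KO replicates 1, 2 and 3, against 6.46, 8.50 and 2.71 FPKM in WT replicates 1, 2 and 3. The underlying counts were 100, 106 and 117 in KO, against 326, 537 and 121 in WT. WT replicate 3 stood just above the KO libraries, and the high values were those of WT replicates 1 and 2. The log2 fold change was -1.56 ± 0.44 (SE, adjusted p = 0.0108 by edgeR), and -1.94 ± 0.25 without WT replicate 3 (SE, adjusted p = 0.000397 by edgeR). Slc27a2 and Slc27a5, which encode the SLC27 proteins typical of liver, had no row.

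Fabp1 (ENSMUSG00000054422; chromosome 6, 71199827 to 71205023, plus strand) encodes the abundant fatty acid binding protein of the hepatocyte cytosol. It stood at 1195, 1420 and 1392 FPKM in KO replicates 1, 2 and 3, against 4741, 2503 and 1458 FPKM in WT replicates 1, 2 and 3. The KO values were close to each other, with an SD of 9.17% of the mean, whereas the WT values spanned a 3.25-fold range. WT replicate 3 exceeded the highest KO library by little. The log2 fold change was -1.12 ± 0.44 (SE, adjusted p = 0.0305 by edgeR). It did not pass without KO replicate 1, 2 or 3 (edgeR adjusted p = 0.0916, 0.0856 and 0.0783), nor without WT replicate 1, where it was -0.57 ± 0.42 (SE, adjusted p = 0.202 by edgeR). Without WT replicate 3 it was -1.44 ± 0.26 (SE, adjusted p = 0.00144 by edgeR). In the authors' deposited table Fabp1 ranked 387 of 389 by p-value, with an FDR of 0.0484, where the largest FDR of the table was 0.0494. The authors' FDR of the other members was 3.42e-10 for Apoa4, 0.0053 for Cd36, 0.0092 for Angptl8 and 0.011 for Slc27a1.

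Apoa4 (ENSMUSG00000032080; chromosome 9, 46240696 to 46243459, plus strand) encodes apolipoprotein A-IV, a secreted protein of triglyceride-rich and high-density lipoproteins that mice make in intestine and liver. It stood at 1558, 782 and 880 FPKM in KO replicates 1, 2 and 3, against 3265, 3766 and 5659 FPKM in WT replicates 1, 2 and 3. The lowest WT library held more than the highest KO library by a wide margin, and here WT replicate 3 was the library farthest from KO. Apoa4 transcripts took 0.283%, 0.142% and 0.160% of all reads in KO replicates 1, 2 and 3, against 0.593%, 0.684% and 1.03% in WT replicates 1, 2 and 3. The log2 fold change was -1.98 ± 0.45 (SE, adjusted p = 0.00632 by edgeR), and -1.71 ± 0.29 without WT replicate 3 (SE, adjusted p = 0.00104 by edgeR). Its exons overlap the annotated Gm47528 and Gm10680 on the opposite strand, and since the use of strand in counting is not stated, their reads cannot be told apart from its own. None of the other 29 genes of the list of apolipoproteins and lipoprotein assembly had a row, among them Apob and Mttp, whose products build very-low-density lipoprotein.

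Angptl8 (ENSMUSG00000047822; chromosome 9, 21835510 to 21837347, plus strand) encodes a secreted protein of liver and fat that takes part in the inhibition of lipoprotein lipase and is induced by feeding. It was the 1 member that was higher in KO. It stood at 161, 311 and 247 FPKM in KO replicates 1, 2 and 3, against 91.6, 126 and 71.0 FPKM in WT replicates 1, 2 and 3. The groups did not overlap, and KO replicate 1 and WT replicate 2 were again the libraries nearest to each other. The log2 fold change was 1.32 ± 0.36 (SE, adjusted p = 0.00932 by edgeR), and 1.14 ± 0.30 without WT replicate 3 (SE, adjusted p = 0.00779 by edgeR). Angptl8 lies within Dock6, a gene on the opposite strand with which it shares no annotated exon. Dock6, named after its values were seen, was also higher in KO, at 326, 320 and 345 counts in KO replicates 1, 2 and 3, against 129, 182 and 203 counts in WT replicates 1, 2 and 3 (log2 fold change 0.94 ± 0.29, SE, adjusted p = 0.0137 by edgeR). Angptl8 itself had 2906, 5949 and 4670 counts in KO, against 1614, 2626 and 1249 counts in WT, and whether reads from Dock6 introns entered its count was not tested.

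**Figure D1:**
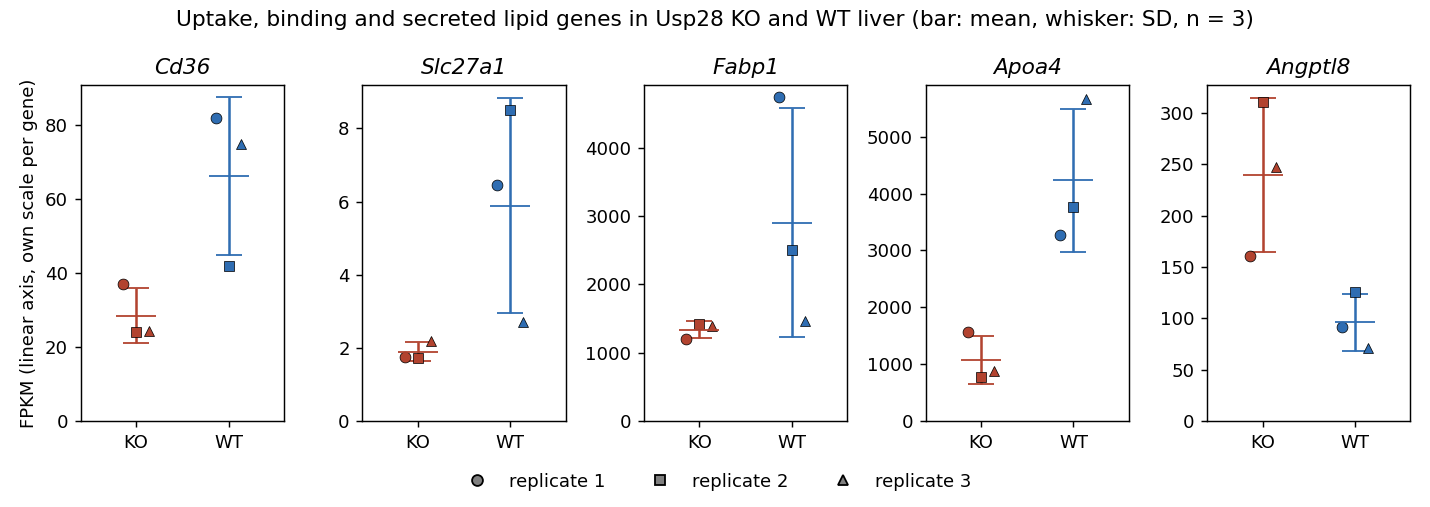
Level of each gene in FPKM (linear axis from 0, own scale per gene) in 3 KO and 3 WT liver libraries; points are libraries, the bar is the mean and the whisker the SD. The KO libraries lie below all WT libraries for Cd36, Slc27a1, Fabp1 and Apoa4 and above them for Angptl8, with WT replicate 3 close to KO for Slc27a1 (2.71 FPKM) and Fabp1 (1458 FPKM).

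The order of the 5 levels, compared per transcript length, differed between the genotypes. In KO, Fabp1 averaged 1336 ± 122 FPKM and Apoa4 1073 ± 423 FPKM, followed by Angptl8 at 240 ± 75.1, Cd36 at 28.5 ± 7.35 and Slc27a1 at 1.90 ± 0.263 FPKM (SD, n = 3). In WT, Apoa4 averaged 4230 ± 1262 FPKM and Fabp1 2901 ± 1677 FPKM, followed by Angptl8 at 96.1 ± 27.6, Cd36 at 66.2 ± 21.3 and Slc27a1 at 5.89 ± 2.94 FPKM (SD, n = 3). The libraries of Fabp1 and Apoa4 overlapped in both genotypes, so the order of these neighbours was not set apart from their spread. Angptl8 and Cd36 overlapped in WT, where the ratio of their FPKM values was 1.12, 3.0 and 0.947 in replicates 1, 2 and 3. In KO they did not overlap, with ratios of 4.35, 12.9 and 10.1 in replicates 1, 2 and 3. Together the 5 genes took 0.374%, 0.254% and 0.264% of all reads in KO replicates 1, 2 and 3, against 0.885%, 0.845% and 1.13% in WT replicates 1, 2 and 3, most of them from Apoa4.

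The 4 lower genes did not follow 1 pattern across the WT libraries. Measured from the KO mean on the log2 CPM scale, WT replicate 3 stood 0.13 above it for Fabp1 and 0.26 above it for Slc27a1. For Apoa4 the same library stood 2.47 above the KO mean, and for Angptl8 it stood at -1.71, in both cases farther than WT replicates 1 and 2. For Cd36 it was WT replicate 2 that came nearest, at 0.43, below KO replicate 1 at 0.52. The ratio of Apoa4 to Fabp1 in FPKM therefore ran from 0.551 to 1.3 over the KO libraries and from 0.689 to 3.88 over the WT libraries, with the highest value in WT replicate 3.

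**Figure D2:**
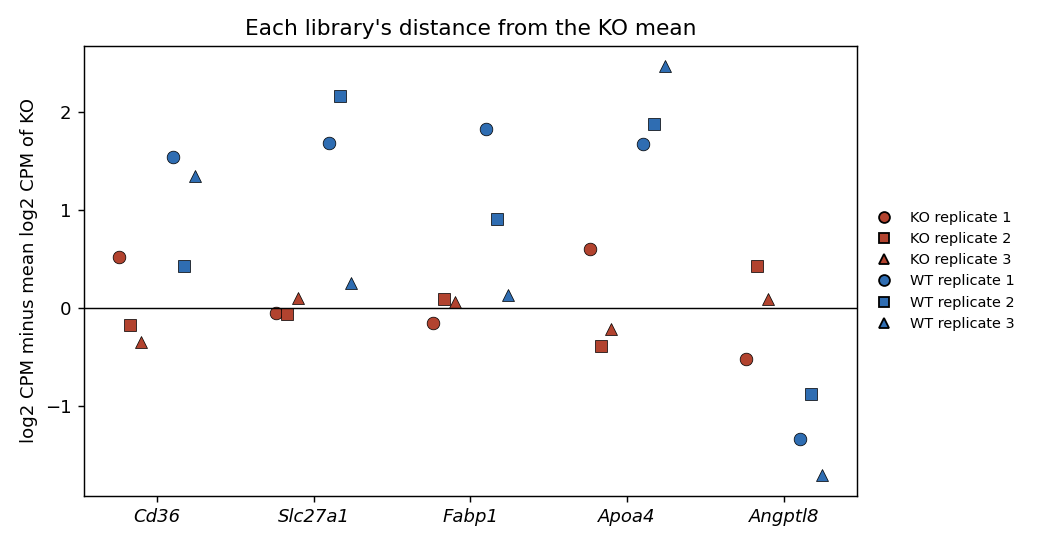
Distance of every library from the KO mean in log2 CPM, for each gene, with KO libraries on the left and WT libraries on the right. WT replicate 3 (triangle) lies next to the KO libraries for Fabp1 and Slc27a1 and farthest from them for Apoa4 and Angptl8.

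All 5 members passed an adjusted p of 0.05 in edgeR's quasi-likelihood test over the listed genes, where 99.7% of all listed genes passed. As the listed genes had been chosen on this comparison, nothing is read from that count. Lower genes that passed were 59.9% and higher genes 39.8% of the listed genes. The median absolute log2 fold change was 1.32 over the members and 1.38 over all listed genes, so the members were of ordinary size among them. KO and WT libraries did not overlap in 5 of 5 members on the FPKM scale, where 93.3% of listed genes did not (55.0% with KO lower), and in 4 of 5 on the CPM scale, where 94.3% did not. With 3 samples against 3, an exact two-sided permutation test cannot give a p below 0.1. The authors' p-values and FDR imply that 16198 genes were tested. When the edgeR p-values were adjusted over that number, with genes without a row ranked as unchanged, 0 of the 5 members passed (1.29% of listed genes did). All 5 members had an unadjusted edgeR p under 0.05. By the authors' p-values the last listed gene ranked 823 among the genes tested, so genes without a row did rank ahead of listed ones, and the adjusted p-values given here are higher than those of the full ranking would be or equal to them. The same adjustment of DESeq2's p-values left Apoa4 (adjusted p = 0.000139) and Angptl8 (adjusted p = 0.0459), where 39.3% of listed genes passed. Scaling that takes most listed genes as unchanged moved the median listed gene by 0.60 (TMM) or 0.65 (DESeq2's own factors) on the log2 scale, and no member changed direction under either. Apoa4 and Angptl8 were then the members that passed. Among all listed genes 156 higher and 94 lower genes passed with TMM and 156 and 83 with DESeq2's own factors, against 155 and 233 with the recovered depth.

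**Figure D3:**
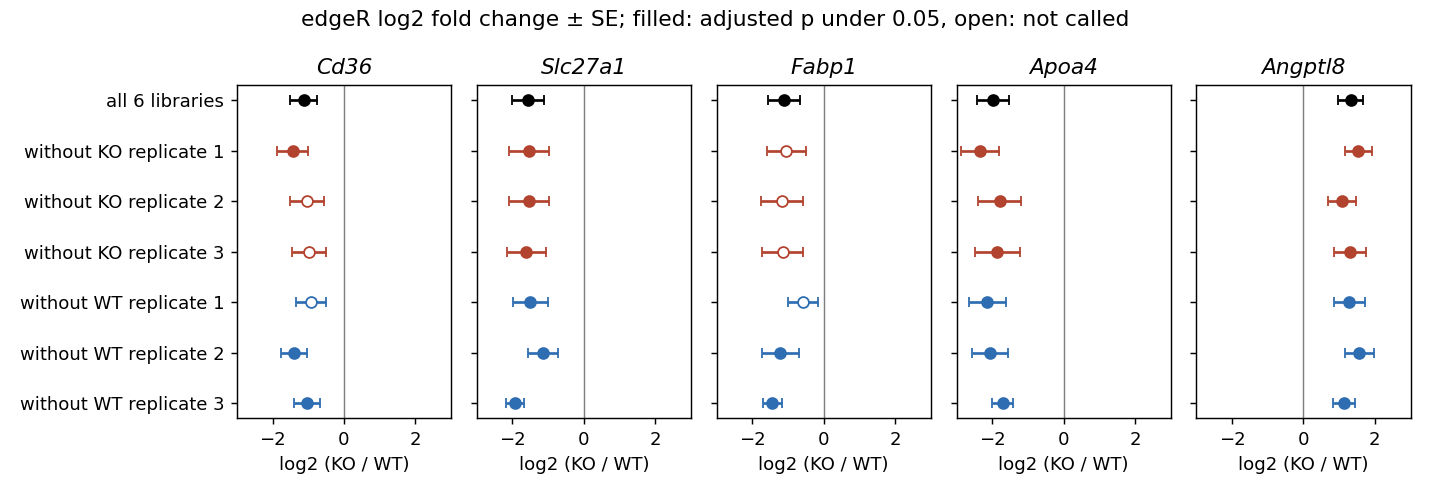
Log2 fold change of KO over WT with its SE from edgeR, using all 6 libraries and with each library left out in turn. Slc27a1, Apoa4 and Angptl8 passed (filled points) in every row shown, while Cd36 did not pass without KO replicate 2, KO replicate 3 or WT replicate 1, and Fabp1 did not pass without KO replicate 1, 2 or 3 or WT replicate 1.

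Leaving out single libraries also cost calls among all listed genes. Of these, 72.5%, 71.5% and 80.7% passed without KO replicate 1, 2 or 3, and 80.7%, 88.7% and 95.6% without WT replicate 1, 2 or 3. Cd36 did not pass without KO replicate 2, KO replicate 3 or WT replicate 1 (edgeR adjusted p = 0.0698, 0.0716 and 0.0562), with log2 fold changes between -1.44 and -0.91 over the 6 fits; without WT replicate 3 it was -1.04 ± 0.37 (SE, adjusted p = 0.0263 by edgeR). Apoa4 stayed between -2.35 and -1.71, Slc27a1 between -1.94 and -1.14 and Angptl8 between 1.09 and 1.56, and each of them passed in all 6 of these fits. Most listed genes passed in each single fit, but the share of them that passed in all 6 was not counted.

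The deposited values also held a length for Cd36 and Slc27a1. A count divided by its FPKM and by the depth gives the transcript length that the authors' quantification assigned to a gene in that library. For Fabp1, Apoa4 and Angptl8, each with 1 annotated transcript, this gave 553, 1815 and 865 bp in every library, the annotated lengths. Cd36 has 6 annotated transcripts of 702 to 3399 bp and Slc27a1 has 9 of 384 to 3207 bp, and their implied lengths moved between libraries. This length is part of the FPKM on which the authors selected the listed genes, so it is not independent of that selection. Cd36 had implied lengths of 2744, 2608 and 2283 bp in KO replicates 1, 2 and 3, against 2521, 2286 and 2408 bp in WT replicates 1, 2 and 3. The genotypes overlapped, with means of 2545 ± 237 bp in KO and 2405 ± 118 bp in WT (SD, n = 3 each, exact two-sided permutation test, p = 0.50). Slc27a1 had means of 2643 ± 180 bp in KO and 2429 ± 215 bp in WT, also with overlap (SD, n = 3 each, exact two-sided permutation test, p = 0.30). The length assigned to KO replicate 1 and to WT replicate 2 is what set these libraries apart for Cd36 in FPKM when they were not apart in CPM.

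**Figure D4:**
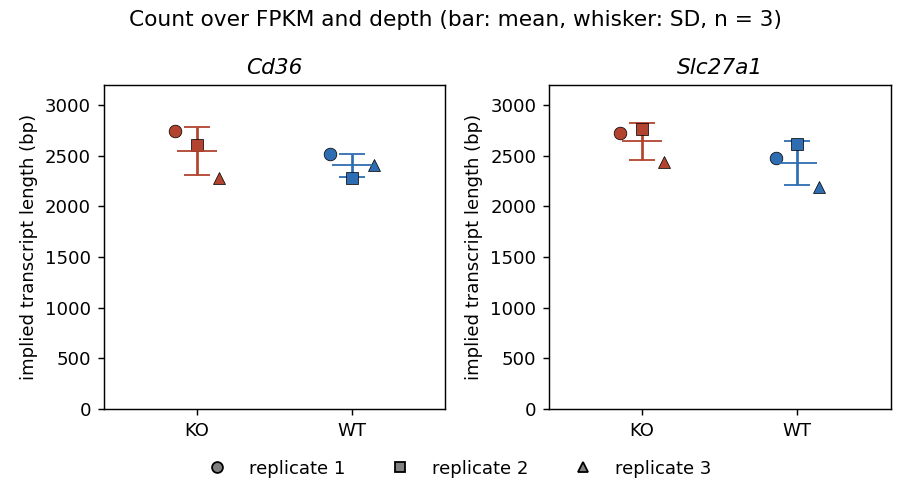
Transcript length implied by count, FPKM and depth for Cd36 and Slc27a1 in 3 KO and 3 WT libraries (bp, axis from 0); the bar is the mean and the whisker the SD. The genotypes overlap for both genes, and the libraries of 1 genotype differ from each other as well. Circles, squares and triangles are replicates 1, 2 and 3.

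Promoter windows are shown because 4 members moved in one direction and 1 in the other, and because the response element of the PPAR receptors has a known sequence, a direct repeat of a hexamer spaced by 1 base. Windows from RefSeq (build GRCm38.p6, 250 bases before to 50 bases after a RefSeq start) matched all 5 members by symbol, with 3 windows for Slc27a1 and 1 for each other gene. Capitals mark the hexamer AGGTCA and its relaxed direct repeat (AGGNCA, any 1 base, AGGNCA), searched on both strands, so that TGACCT is the hexamer on the other strand.
Fabp1, chr6:71199629-71199928, plus strand: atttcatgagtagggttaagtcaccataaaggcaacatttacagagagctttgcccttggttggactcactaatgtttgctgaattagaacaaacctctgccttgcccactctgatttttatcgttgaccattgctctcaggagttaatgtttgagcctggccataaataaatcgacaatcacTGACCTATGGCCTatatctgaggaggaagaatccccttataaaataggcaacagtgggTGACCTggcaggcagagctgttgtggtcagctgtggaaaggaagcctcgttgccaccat
Cd36, chr5:17835847-17836146, minus strand: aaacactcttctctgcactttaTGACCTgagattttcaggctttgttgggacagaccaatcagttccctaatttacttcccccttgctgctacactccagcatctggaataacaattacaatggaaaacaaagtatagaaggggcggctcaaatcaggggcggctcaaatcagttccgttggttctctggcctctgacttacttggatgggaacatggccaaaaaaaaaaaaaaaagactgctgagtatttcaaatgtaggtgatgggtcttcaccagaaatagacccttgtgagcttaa
Apoa4, chr9:46240594-46240893, plus strand: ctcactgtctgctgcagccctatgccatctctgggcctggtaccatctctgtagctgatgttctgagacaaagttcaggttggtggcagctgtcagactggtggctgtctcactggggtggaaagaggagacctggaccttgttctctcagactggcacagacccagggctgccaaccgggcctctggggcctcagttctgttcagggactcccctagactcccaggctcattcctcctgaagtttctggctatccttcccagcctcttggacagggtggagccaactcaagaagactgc
Angptl8, chr9:21835260-21835559, plus strand: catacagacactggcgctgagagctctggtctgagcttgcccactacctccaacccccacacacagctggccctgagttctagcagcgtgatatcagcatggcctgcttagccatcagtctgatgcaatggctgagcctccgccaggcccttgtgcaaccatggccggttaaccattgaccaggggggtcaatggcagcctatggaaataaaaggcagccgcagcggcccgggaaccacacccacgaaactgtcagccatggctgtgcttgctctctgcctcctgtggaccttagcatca

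The Fabp1 window held the relaxed repeat from -67 to -55 relative to the RefSeq start, as TGACCTATGGCCT on the strand shown. This motif was in 0.381% of all 32851 windows, and the strict repeat (AGGTCA, any 1 base, AGGTCA) was in 0.0396% of them and in none of the members'. The hexamer occurs inside that repeat, at -67 to -62, and again at -9 to -4 in Fabp1 and at -228 to -223 in Cd36, and 16.3% of all windows held at least 1. The motif TATAAA was in the Fabp1 window at -30 to -25 and in 13.6% of all windows. The windows of Apoa4, Angptl8 and Slc27a1 held none of these letters in that order, which says nothing of elements outside them. Other annotated Cd36 transcripts start elsewhere, and the annotated starts of Fabp1 and Apoa4 in GENCODE lie before their RefSeq starts. For Fabp1 the GENCODE start is 71199827, within the window of 71199629 to 71199928. By that start the relaxed repeat lies just before the gene, while TATAAA and the hexamer at -9 to -4 lie inside it. For Apoa4 the GENCODE start is 46240696, within the window of 46240594 to 46240893. Much of that window therefore lies inside the annotated gene, and sequence before the GENCODE start was searched only in part. Of the 292 listed genes with a window, Fabp1 was the 1 gene with the relaxed repeat (0.342%), a share near that of all windows. The hexamer was in 19.9% of these listed genes.

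Other genes of fatty acid uptake, binding and activation were largely without a row: of 33 genes in the list, Cd36, Slc27a1, Fabp1 and Mfsd2a had one. All 4 passed as lower in KO, where 59.9% of all listed genes did. Mfsd2a encodes a transporter of lysophosphatidylcholine that carries long-chain fatty acids. It stood at 71.5, 112 and 114 FPKM in KO replicates 1, 2 and 3, against 251, 269 and 217 FPKM in WT replicates 1, 2 and 3, so that every WT library was far above KO. Its log2 fold change was -1.28 ± 0.32 (SE, adjusted p = 0.00820 by edgeR). None of 19 lipoprotein receptor and sterol export genes had a row.

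Of 30 genes reported to regulate the members, 5 had a row. Ppara, the receptor gene that drives fatty acid use in liver, averaged 9.97 ± 1.23 FPKM in KO and 21.3 ± 3.30 FPKM in WT (SD, n = 3 each), with a log2 fold change of -1.07 ± 0.29 (SE, adjusted p = 0.00932 by edgeR). Ppargc1a, which encodes a coactivator of that receptor, stood at 1.46, 3.03 and 1.93 FPKM in KO replicates 1, 2 and 3, against 10.4, 6.59 and 2.95 FPKM in WT replicates 1, 2 and 3. Its WT replicate 3 lay within the KO range in FPKM but above it in CPM, at 16.9 CPM against 14.5 CPM in KO replicate 2, the highest KO library. The log2 fold change of Ppargc1a was -1.52 ± 0.40 (SE, adjusted p = 0.00923 by edgeR). Nr0b2, which encodes the corepressor SHP, had a log2 fold change of -1.14 ± 0.42 (SE, adjusted p = 0.0230 by edgeR). Its levels were 4.45, 13.5 and 5.75 FPKM in KO replicates 1, 2 and 3, against 14.6, 19.6 and 18.1 FPKM in WT replicates 1, 2 and 3. KO replicate 2 thus lay close to WT replicate 1. Srebf1 and Mlxipl, which encode the insulin- and carbohydrate-responsive activators of lipid synthesis, were higher in KO, as was Angptl8. Srebf1 averaged 25.8 ± 3.24 FPKM in KO and 8.12 ± 6.71 FPKM in WT (SD, n = 3 each), with a log2 fold change of 1.62 ± 0.50 (SE, adjusted p = 0.0136 by edgeR), or 2.54 without WT replicate 3. Mlxipl had a log2 fold change of 1.27 ± 0.32 (SE, adjusted p = 0.00823 by edgeR). In WT replicate 3 Srebf1 and Mlxipl lay nearest to KO, at 15.9 and 19.1 FPKM, whereas Angptl8 lay farthest from it.

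**Figure D5:**
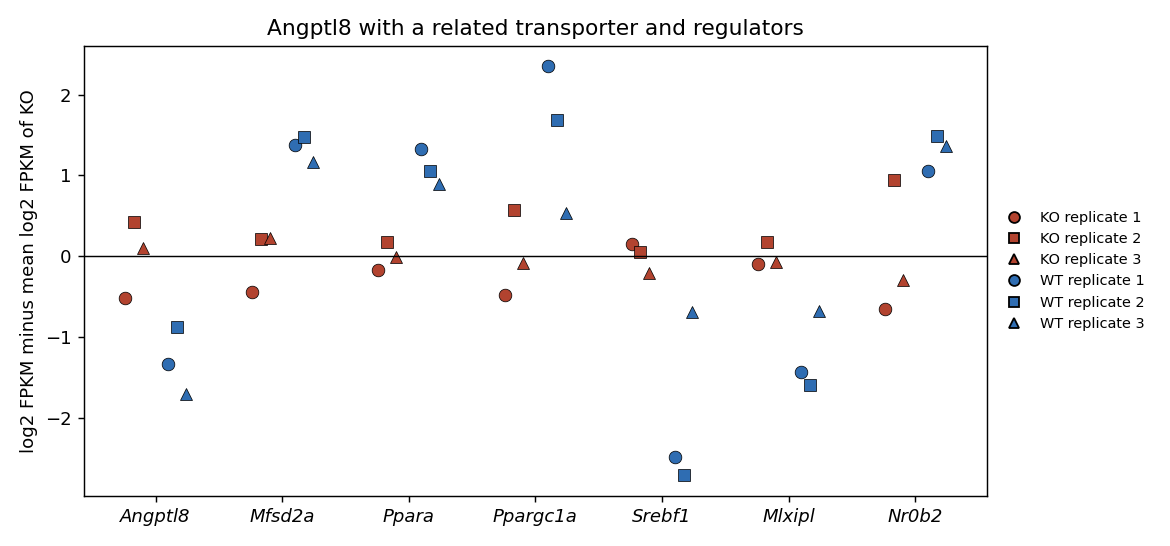
Log2 FPKM of each library minus the KO mean, for Angptl8, the transporter gene Mfsd2a and 5 regulator genes; KO libraries are on the left and WT libraries on the right of each gene. WT replicate 3 (triangle) is the WT library nearest to KO for Srebf1, Mlxipl, Ppargc1a, Ppara and Mfsd2a and the farthest from it for Angptl8.

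The authors' annotation placed Cd36, Slc27a1 and Fabp1 in the PPAR signaling pathway, in which 16 listed genes stood, 15 lower and 1 higher in KO. In the authors' deposited table their median log2 fold change stood at -1.52. Over all listed genes, 59.9% passed as lower in KO and the median log2 fold change was -1.10, both by edgeR. The pathway's values rest on FPKM means and those over all listed genes on counts, so these medians are on unlike measures. Apoa4, Cd36 and Fabp1 were the 3 listed genes under fat digestion and absorption. Cd36, Apoa4 and Angptl8 were 3 of 7 listed genes under cholesterol metabolism, in which 3 were lower and 4 higher in KO.

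Similarity of pattern was measured as the root mean square difference of log2(FPKM + 1) values over the 6 libraries, after each gene was centred on its own mean, among all other listed genes. Because every listed gene was selected on the same comparison, closeness is a description. Among the genes nearest to Slc27a1 were Vwa8 and Slc25a20 (differences of 0.10 and 0.13), of which Slc25a20 encodes the carnitine-acylcarnitine carrier. Nearest to Fabp1 were Gys2, Pex11a and Crot (0.13, 0.18 and 0.18), which encode liver glycogen synthase, a peroxisomal membrane protein and the peroxisomal carnitine octanoyltransferase. Nearest to Cd36 were Gpnmb, C9orf72 and Fam131c (0.25, 0.26 and 0.27). Nearest to Apoa4 were Cntnap1, Cgref1 and Cdc42ep5 (0.28, 0.37 and 0.41), and nearest to Angptl8 were Ptgds, Cyp2c54 and Slc17a8 (0.28, 0.29 and 0.32). Among the members themselves the closest pair was Slc27a1 and Fabp1 (0.39), while Apoa4 differed from Fabp1 by 0.97 and from Cd36 by 0.56.

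Gpnmb, the gene nearest to Cd36, is a marker of lipid-associated macrophages. Of 22 macrophage and Kupffer cell markers, 6 had a row (Itgam, Itgax, Cd14, Gpnmb, Mmp12 and Lgals3). Where 59.9% of listed genes passed as lower in KO, all 6 of these did. Cd14 and Lgals3 did not pass without WT replicate 3 (edgeR adjusted p = 0.156 and 0.0641). The summed level of the 6 markers was 28.9, 23.5 and 20.7 FPKM in KO replicates 1, 2 and 3, against 67.1, 30.8 and 168 FPKM in WT replicates 1, 2 and 3. As for Cd36, WT replicate 2 was the WT library nearest to KO in this sum. The highest sum was in WT replicate 3, where Cd36 was not highest. Most of that sum came from Lgals3 (76.1 FPKM) and Mmp12 (53.4 FPKM), and little from Itgam (1.01 FPKM) or Itgax (2.61 FPKM). Cd14 in WT replicate 2 (4.01 FPKM) lay below KO replicate 2 (4.19 FPKM). Kupffer cell genes such as Clec4f, Timd4 and Vsig4 had no row, nor had Adgre1, Cd68, Csf1r, Trem2 or Spp1 of the same list. These rows therefore do not separate kinds of macrophage. No listed marker was at 0 in any library. The part of macrophages in the Cd36 difference was not tested. In RNA from whole liver, fewer cells of a type and less RNA per cell cannot be told apart. None of 16 endothelial markers had a row, and of 12 adipocyte markers Cidec, which steatotic hepatocytes also make, was the 1 with a row, at 4.40, 3.31 and 3.28 FPKM in KO replicates 1, 2 and 3, against 143, 126 and 103 FPKM in WT replicates 1, 2 and 3.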

How the data were processed

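Per the file headers, the deposited table held raw counts and FPKM for each gene in each sample. Beside them the authors deposited mean FPKM per group, the log2 fold change of KO over WT, and a p-value with an FDR. The submitters' processing notes name RSEM, HISAT2, StringTie 1.3.1 and fastp 0.18.0. The sources used here give neither their roles nor the genome build, annotation, strand setting or the authors' test. Per the labels' protocols, Trizol was used for extraction and a NEBNext Ultra kit for the libraries.

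No gene in the table the authors deposited had a smaller absolute log2 ratio than 1.004. Depth was the median of count over FPKM, relative between libraries over 237 genes with at least 50 counts and 1 FPKM, and absolute from 32 of these with 1 annotated transcript. edgeR 4.0.16 in R 4.3.3 tested the counts with that depth as library size, no further scaling, no filter and Benjamini-Hochberg adjustment over 389 genes. The SE is the log2 fold change over the square root of the F statistic. DESeq2 1.42.0 and limma 3.58.1 on log2(FPKM + 1) were alternatives, and the scripts were tested on simulated data. No samples were duplicates, since counts within a group differed beyond sampling noise (lowest chi-square over its degrees of freedom 45.0).

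Members, gene lists and motifs were chosen with earlier results of these data known. Genes named are the members, all listed genes of the lists used (the 1 listed stellate marker, Timp1, was lower in KO, at 0.05 to 0.26 FPKM against 0.33 to 3.55 FPKM in WT, and did not pass without WT replicate 3; 14 enterocyte and pancreas markers and 10 cholangiocyte markers had no row), and the 3 genes nearest in pattern to each member; results for some genes that this rule names are not reported here. Of the 389 gene IDs, 388 matched GENCODE M21 (GRCm38), the source of positions.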

Additional observations from a re-analysis of the deposited data

How the results depend on the processing

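No member changed direction under any alternative run. With TMM, Cd36 (log2 fold change -0.50), Slc27a1 (-1.02) and Fabp1 (-0.55) did not pass, leaving 2 members and 250 listed genes. With DESeq2's own factors the same 3 were at -0.44, -0.91 and -0.40, leaving 2 members and 239 listed genes. With the sum of listed counts as library size, Cd36 (-0.20), Slc27a1 (-0.45), Fabp1 (-0.034) and Apoa4 (-1.10) did not pass, leaving 1 member and 181 listed genes (154 higher, 27 lower). These scalings take the listed genes as mostly unchanged. limma left out Fabp1 at -0.96 with a pseudocount of 1 and also with 0.1. With the replicate block Fabp1 did not pass (-0.95, adjusted p = 0.0844). Correlations of deviations were 0.045, 0.077 and -0.052 for same-numbered samples and ran from -0.18 to 0.14 for differently numbered ones. With 3 samples a group, this cannot decide whether the numbers pair the samples. No other member lost its call under the block.

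When 1 library was left out, between 3 and 5 members and between 278 and 372 listed genes passed, with Cd36 at -1.44 to -0.91 and Fabp1 at -1.44 to -0.57. Adjusted over 16198 genes, which was added after the data were seen, edgeR left 0 members and 5 listed genes, at unchanged log2 fold changes (Cd36 -1.13, Slc27a1 -1.56, Fabp1 -1.12, Apoa4 -1.98, Angptl8 1.32), and DESeq2 left 2 members and 153 listed genes, without Cd36 (-1.13), Slc27a1 (-1.56) and Fabp1 (-1.12). Counts were lowest for Slc27a1, at 100 to 117 in KO libraries, with an SE (0.44) like that of Fabp1 (0.44).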
